A study of Mus musculus with 16 samples.

Results

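The immunoglobulin genes of the mouse were read in 16 RNA-seq libraries of group 2 innate lymphoid cells (ILC2), tissue-resident lymphocytes that do not carry antibodies, sorted from the duodenum. Members were all genes that the deposited table annotates as an immunoglobulin segment and not as a pseudogene, which gave 268 of 53465 genes. Of these, 179 had at least 1 count. The 4 genotypes had 4 libraries each. Alox5 KO mice lack 5-lipoxygenase, Il25 KO mice the cytokine IL-25, St2 KO mice the IL-33 receptor chain ST2, and wild-type (WT) mice were the controls. All mice were C57BL/6, 6 to 10 weeks old, untreated and kept free of specific pathogens, and all were homozygous for Smart13, a reporter at Il13. The Il25 KO and St2 KO mice were also homozygous for Yarg, a reporter at Arg1, so in their comparisons with WT the deletion and the reporter cannot be told apart. Cells came from the first 5 cm of the small intestine. No source used here states the markers of the sort. Separate mice per library are not named in the labels, and the spread behind each p-value may be technical.

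The sample codes put the libraries into 3 sets. Replicates 1 and 2 of each genotype form set TS. Replicates 3 and 4 form set TT in Alox5 KO and WT, and set TY in Il25 KO and St2 KO. The labels do not explain the codes. Xist, expressed in female cells, had 982 to 1682 counts in TY and at most 7 in the other sets, so TY also differed from the rest in the sex of its mice. Total counts per library ranged from 2086864 to 3216937. Alox5 had 12 to 31 counts in Alox5 KO libraries and 196 to 376 in WT libraries. Il25 had 0 counts in all libraries, and Il1rl1, which encodes ST2, had 365 to 585 counts in St2 KO libraries and 448 to 636 in WT libraries. The Il25 KO and St2 KO labels were therefore not checked by their target genes. All 12 ILC2 markers had counts in each genotype, with a summed level of 5104 to 6830 depth-scaled counts (CPM, counts scaled to a common library total).

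An antibody is built from 2 copies each of a heavy and a light chain. B cells join a variable, a diversity and a joining segment at the heavy locus, and a variable and a joining segment at the kappa or lambda locus, so that each B cell clone transcribes its own variable genes. The constant gene downstream sets the isotype. Ighm encodes the constant region of IgM, Ighd that of IgD and Igha that of IgA, which plasma cells of the gut wall secrete in bulk with the joining chain encoded by Jchain. The unrearranged Ighm gene is also known to be transcribed from a start site upstream of it in lymphocytes that are not B cells. In bulk libraries, fewer cells of a type and less RNA per cell cannot be told apart.

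The heavy locus held 144 members on chromosome 12 (chr12:113254830-116000461), the kappa locus 106 on chromosome 6 (chr6:67555497-70726966) and the lambda locus 12 on chromosome 16 (chr16:19061618-19260859), on GRCm38. The other 6 members had no chain in their symbol and no count. Heavy genes held 57469 counts over the 16 libraries, kappa genes 23856 and lambda genes 4910. Constant genes held 64392 counts in 10 of 13 genes, variable genes 20317 in 155 of 222, joining segments 1510 in 12 of 14 and diversity segments 16 in 2 of 19.

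Many variable genes resemble each other, which limits how far counts can be assigned to 1 gene. 8 of the 12 heavy variable genes that reached 100 counts in a library belonged to the Ighv1 family. The 90 bases up to the conserved cysteine codon near the end of the variable exon are printed for the 5 of them that did so in more than 1 library, with capitals at the bases that differ from Ighv1-26, because the comparison of variable genes rests on telling these apart. Sequences are from the GENCODE M21 transcripts on GRCm38, 5' to 3' in the sense of the gene.
Ighv1-26, chr12:114788378-114788467, minus strand: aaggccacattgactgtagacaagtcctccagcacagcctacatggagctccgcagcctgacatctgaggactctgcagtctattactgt
Ighv1-78, chr12:115868779-115868868, minus strand: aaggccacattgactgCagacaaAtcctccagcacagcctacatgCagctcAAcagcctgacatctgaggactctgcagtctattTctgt
Ighv1-81, chr12:115920285-115920374, minus strand: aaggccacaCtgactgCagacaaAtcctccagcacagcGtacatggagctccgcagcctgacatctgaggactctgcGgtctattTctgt
Ighv1-64, chr12:115507551-115507640, minus strand: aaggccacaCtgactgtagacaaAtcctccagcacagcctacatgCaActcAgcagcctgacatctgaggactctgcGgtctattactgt
Ighv1-55, chr12:115208101-115208190, minus strand: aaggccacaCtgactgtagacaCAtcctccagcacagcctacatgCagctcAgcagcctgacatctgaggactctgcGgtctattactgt
Each of the 4 others differed from Ighv1-26 at 6 of the 90 bases. Over all 28 pairs among the 8 Ighv1 genes, identity ranged from 87.8% to 97.8%, with 2 to 11 mismatches. Somatic mutation of a B cell clone can add changes that the reference does not hold.

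The joining segments are short and distinct, and they served to set libraries with the same variable gene apart. Capitals mark the start of the motif shared by the segments of a locus.
Ighj1, chr12:113429781-113429833, minus strand: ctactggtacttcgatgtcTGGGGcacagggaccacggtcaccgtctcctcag
Ighj2, chr12:113429468-113429515, minus strand: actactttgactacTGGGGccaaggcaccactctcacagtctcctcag
Ighj3, chr12:113429085-113429132, minus strand: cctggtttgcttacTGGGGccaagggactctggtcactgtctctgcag
Ighj4, chr12:113428514-113428567, minus strand: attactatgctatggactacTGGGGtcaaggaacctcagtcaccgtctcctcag
Igkj1, chr6:70722562-70722599, plus strand: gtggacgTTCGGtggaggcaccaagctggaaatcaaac
Igkj2, chr6:70722916-70722954, plus strand: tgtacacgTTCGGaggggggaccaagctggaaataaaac
Igkj4, chr6:70723548-70723585, plus strand: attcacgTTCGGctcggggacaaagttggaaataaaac
The lambda constant genes Iglc2 and Iglc3 are shown because they are close copies. Capitals in Iglc3 mark the bases that differ from Iglc2.
Iglc2, chr16:19198701-19198850, minus strand: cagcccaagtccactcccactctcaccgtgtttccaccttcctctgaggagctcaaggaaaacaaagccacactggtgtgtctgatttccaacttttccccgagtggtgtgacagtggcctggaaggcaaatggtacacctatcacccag
Iglc3, chr16:19065530-19065679, minus strand: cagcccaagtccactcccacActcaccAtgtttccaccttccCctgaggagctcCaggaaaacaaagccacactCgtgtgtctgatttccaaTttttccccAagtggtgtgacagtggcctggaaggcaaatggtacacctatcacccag
They differed at 7 of these 150 bases and were 96.3% identical over the first 300 aligned bases of the exon, so the split of counts between Iglc2 and Iglc3 is uncertain. Iglc1 was 74.3% identical to Iglc2 over the same stretch.

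Summed over the 268 members, immunoglobulin transcripts took 0.0662% to 0.34% of a library's counts. The sum was 662.5, 701.0, 2264 and 2626 CPM in the Alox5 KO libraries, 2230, 1971, 3005 and 2130 CPM in the Il25 KO libraries, 669.7, 1822, 1716 and 1949 CPM in St2 KO, and 2109, 3403, 2815 and 2749 CPM in WT. Alox5 KO 1, Alox5 KO 2 and St2 KO 1 lay apart from the other 13 libraries, which did not go below 1716 CPM. The mean was 1563 ± 1030 CPM in Alox5 KO, 2334 ± 460 CPM for Il25 KO, 1539 ± 587 CPM for St2 KO and 2769 ± 529 CPM in WT (SD, n = 4 each). The range of Alox5 KO overlapped that of WT, and so did the range of Il25 KO. All 4 St2 KO libraries lay below the lowest WT library.

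**Figure D1:**
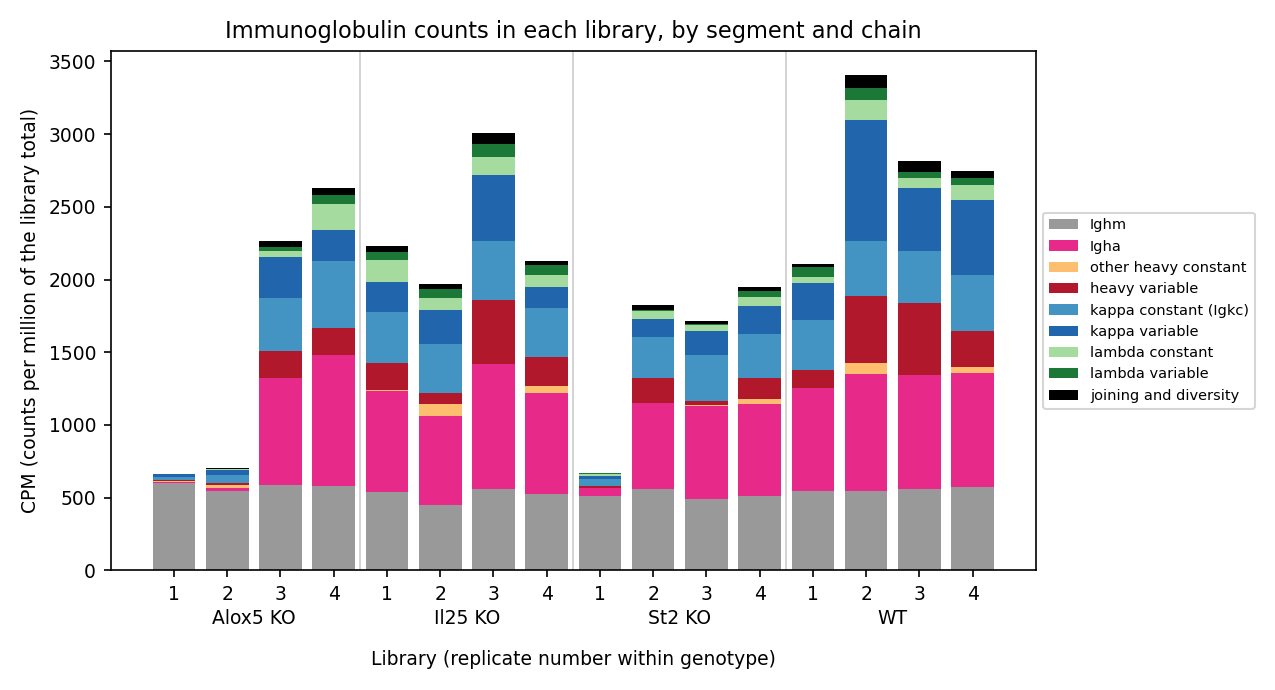
Summed level of the immunoglobulin genes in each library in CPM, with libraries grouped by genotype and each bar divided by chain and segment. The grey Ighm block is of like height in all 16 bars, and Alox5 KO 1, Alox5 KO 2 and St2 KO 1 hold little else, with sums of 662.5, 701.0 and 669.7 CPM.

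The constant genes showed which transcripts made this split. Ighm (chr12:113418558-113422730) was even in all libraries, with 598, 548, 587 and 578 CPM in Alox5 KO, 538, 449, 560 and 526 CPM in the Il25 KO libraries, 508, 560, 494 and 511 CPM in St2 KO, and 546, 546, 561 and 571 CPM in WT. The 3 libraries with a low sum had 598, 548 and 508 CPM of Ighm, inside or just above the range of 449 to 587 CPM in the other 13. After genotype and set were fitted, the SD of Ighm between libraries was 0.0797 on the log2 CPM scale, and 0.843% of the 11742 tested genes had a lower one. Among the 252 genes within 0.5 log2 CPM of its mean level, 11.5% had a lower SD and the median was 0.129. The median SD was 1.58 over the 18 immunoglobulin genes tested and 0.312 over all tested genes.

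Igha (chr12:113254830-113260236) behaved otherwise. It had 18, 52, 1856 and 1878 counts in Alox5 KO, 1934, 1662, 2110 and 1931 counts in Il25 KO, 169, 1899, 1741 and 1840 counts in St2 KO, and 1829, 2078, 2075 and 1917 counts in WT. Alox5 KO 1, Alox5 KO 2 and St2 KO 1 were thus at 18 to 169 counts and the other 13 libraries at 1662 to 2110. As a share of Igha and Ighm counts together, Igha made up 1.18% (95% Wilson interval 0.75 to 1.86), 3.54% (2.71 to 4.61) and 10.1% (8.74 to 11.6) in those 3 libraries. Intervals cover counting error only. The share was 51.3% to 60.9% in the other 13.

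The kappa constant gene Igkc (chr6:70726435-70726966) had 56, 151, 921 and 958 counts in Alox5 KO, 965, 926, 981 and 937 counts in Il25 KO, 129, 911, 858 and 873 counts in St2 KO, and 894, 984, 959 and 939 counts in WT. Jchain, not an immunoglobulin gene itself, had 5, 85, 1181 and 1429 counts in Alox5 KO, 1397, 1085, 1542 and 1356 counts in Il25 KO, 98, 1202, 1264 and 1164 counts in St2 KO, and 1479, 1694, 1563 and 1307 counts in WT. The same 3 libraries were lowest for Igha, Igkc and Jchain. All 3 belong to set TS. Of the TS libraries, Il25 KO 1 and 2, St2 KO 2 and WT 1 and 2 were not low.

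**Figure D2:**
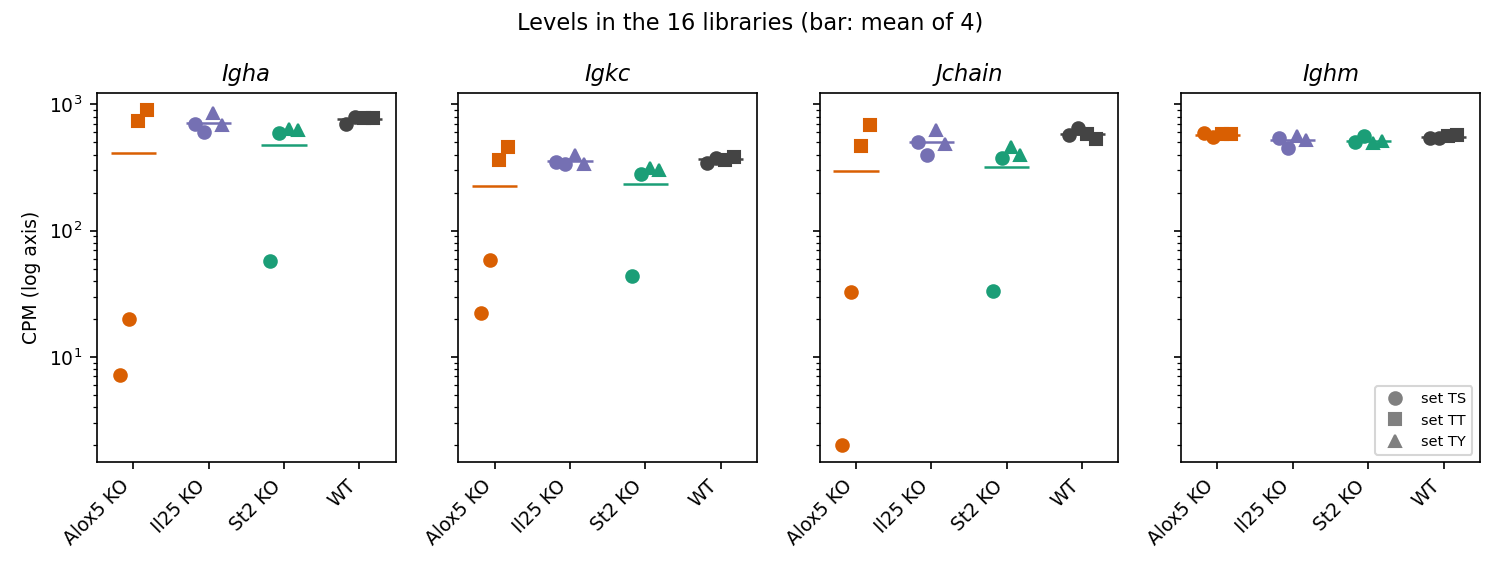
Levels of Igha, Igkc, Jchain and Ighm in CPM on a log axis, 1 point per library with the mean of the 4 libraries of a genotype as a bar and the sample-code set as the symbol. In the first 3 panels, Alox5 KO 1, Alox5 KO 2 and St2 KO 1 stand far below the rest, while Ighm spans 449 to 598 CPM.

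The IgG, IgD and IgE genes were rare and differed from library to library. Ighg2b had 161 counts in Il25 KO 2 and 141 in Il25 KO 4, against 151 in WT 2 and 112 in WT 4, 1 count in St2 KO 1 and 0 in the other 11 libraries. Ighg1 had 91 counts in St2 KO 4 and 1 in WT 2, and Ighg2c 6 counts in Il25 KO 3. Ighg3 and Ighe had no count in any library, which at a floor of 3 counts allows up to 1.44 CPM in the shallowest library. Ighg2b thus had more than 1 count in 2 Il25 KO and 2 WT libraries and in none of Alox5 KO or St2 KO, and Ighg1 in 1 St2 KO library. Of the IgG and IgE genes, only Ighg2b had enough counts to be tested between genotypes. EdgeR did not call it in any comparison (edgeR adjusted p = 0.586 to 0.997). Whether the other IgG counts follow genotype, or any of these counts follow set, was not tested.

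Ighd, the constant gene of IgD, which mature B cells that have not switched isotype express, had 18, 42, 1 and 5 counts in Alox5 KO, 8, 64, 0 and 1 counts in Il25 KO, 0, 13, 18 and 9 counts in St2 KO, and 0, 45, 7 and 0 counts in WT. The highest library was replicate 2 in Alox5 KO, Il25 KO and WT, and replicate 3 in St2 KO. Ms4a1, which encodes the B cell surface protein CD20, had 11 counts in Alox5 KO 2, 10 in Il25 KO 2, 29 in St2 KO 3 and 15 in WT 2, and 0 in the other 12 libraries. Pax5, the transcription factor that defines the B cell lineage, was at 0 in all 16. The 4 libraries with Ms4a1 counts each had the highest Ighd count of their genotype. Of the libraries low in Igha, Alox5 KO 2 had both transcripts, Alox5 KO 1 had 18 counts of Ighd and none of Ms4a1, and St2 KO 1 had neither.

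Light chains were mostly kappa. Of the light-chain constant counts, lambda genes held a median of 17.2%, with 1.75% in Alox5 KO 1, where only 57 such counts were present, and 30.4% (28.1 to 32.9) in Il25 KO 1. The shares of the 4 WT libraries alone ranged over 10.2%, 26.5%, 16.1% and 21.1%. Iglv1, the main lambda variable gene (chr16:19085017-19085500), had 4, 2, 74 and 129 counts in Alox5 KO, 133, 168, 183 and 190 counts in Il25 KO, 18, 27, 4 and 116 counts in St2 KO, and 170, 171, 89 and 97 counts in WT. All 4 Il25 KO libraries lay above all 4 St2 KO libraries for Iglv1. Iglv3 had 0, 0, 0 and 3 counts in Alox5 KO, 6, 0, 38 and 10 in Il25 KO, 0, 4, 6 and 17 in St2 KO, and 5, 28, 22 and 20 in WT. Iglc1 had 1, 1, 30 and 197 counts in Alox5 KO, 176, 148, 120 and 59 in Il25 KO, 27, 95, 23 and 16 in St2 KO, and 4, 158, 98 and 97 in WT.

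Variable genes were dominated by very few genes per library, and these differed between libraries. Of the variable genes, 33 reached 100 counts in at least 1 library, a threshold chosen after the values were seen: 12 heavy, 20 kappa and the lambda gene Iglv1. Of the 12 heavy genes, 7 reached it in 1 library, 4 in 2 libraries and Ighv1-26 in 4. Of the 20 kappa genes, 17 did so in 1 library and 3 in 2. The 50 gene and library pairs at or above 100 counts had 105 to 663 counts, with a median of 352. Of the 478 pairs of these genes below it, 277 were at 0, 192 at 1 to 20 and 9 at 21 to 99. The threshold itself left out genes that were at intermediate counts only, such as Ighv1-72 with 42 counts in St2 KO 3.

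The most abundant heavy variable gene took 20.0% to 94.3% of a library's heavy variable counts, and 12 different genes held that place. In Alox5 KO it was Ighv1-23 with 7 counts, Ighv1-75 with 8, Ighv1-64 with 408 and Ighv1-75 with 327. In Il25 KO it was Ighv1-81 with 495 counts, Ighv1-26 with 159, Ighv1-78 with 522 and Ighv5-6 with 480. In St2 KO it was Ighv1-22 with 28 counts, Ighv1-78 with 512, Ighv1-72 with 42 and Ighv1-64 with 387. In WT it was Ighv1-26 with 269 counts, Ighv8-8 with 293, Ighv3-6 with 525 and Ighv1-55 with 310. The 3 libraries low in Igha had no heavy variable gene at 100 counts, and neither had St2 KO 3. The effective number of heavy variable genes, the inverse Simpson index of their shares, ran from 1.12 in St2 KO 2 to 10.4 in Alox5 KO 2, where it rests on 40 counts. Thinned to 25 counts, the expected number of genes was 12 in Alox5 KO 1, 13.1 in Alox5 KO 2 and 8.25 in St2 KO 1, and 2.36 to 7.83 in the other 13 libraries.

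The most abundant kappa variable gene took 27.3% to 94.4% of kappa variable counts, again with 12 different genes. It was Igkv5-48 with 16 counts, Igkv3-5 with 31, Igkv6-15 with 560 and Igkv4-61 with 373 in Alox5 KO. It was Igkv9-120 with 514 counts, Igkv8-21 with 534, Igkv6-14 with 504 and Igkv1-117 with 377 in Il25 KO. It was Igkv10-96 with 46 counts, Igkv1-117 with 358, Igkv10-96 with 401 and Igkv8-19 with 523 in St2 KO. It was Igkv5-48 with 602 counts, Igkv6-32 with 590, Igkv9-120 with 460 and Igkv19-93 with 663 in WT. Thinned to 38 counts, the expected number of kappa genes was 8.0 in Alox5 KO 1, 9.23 in Alox5 KO 2 and 9.46 in St2 KO 1, and 3.0 to 9.81 in the other 13 libraries, with WT 2 the highest of all 16. WT 2 held the most kappa variable genes at 100 counts or more, 7, and also the highest summed immunoglobulin level.

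**Figure D3:**
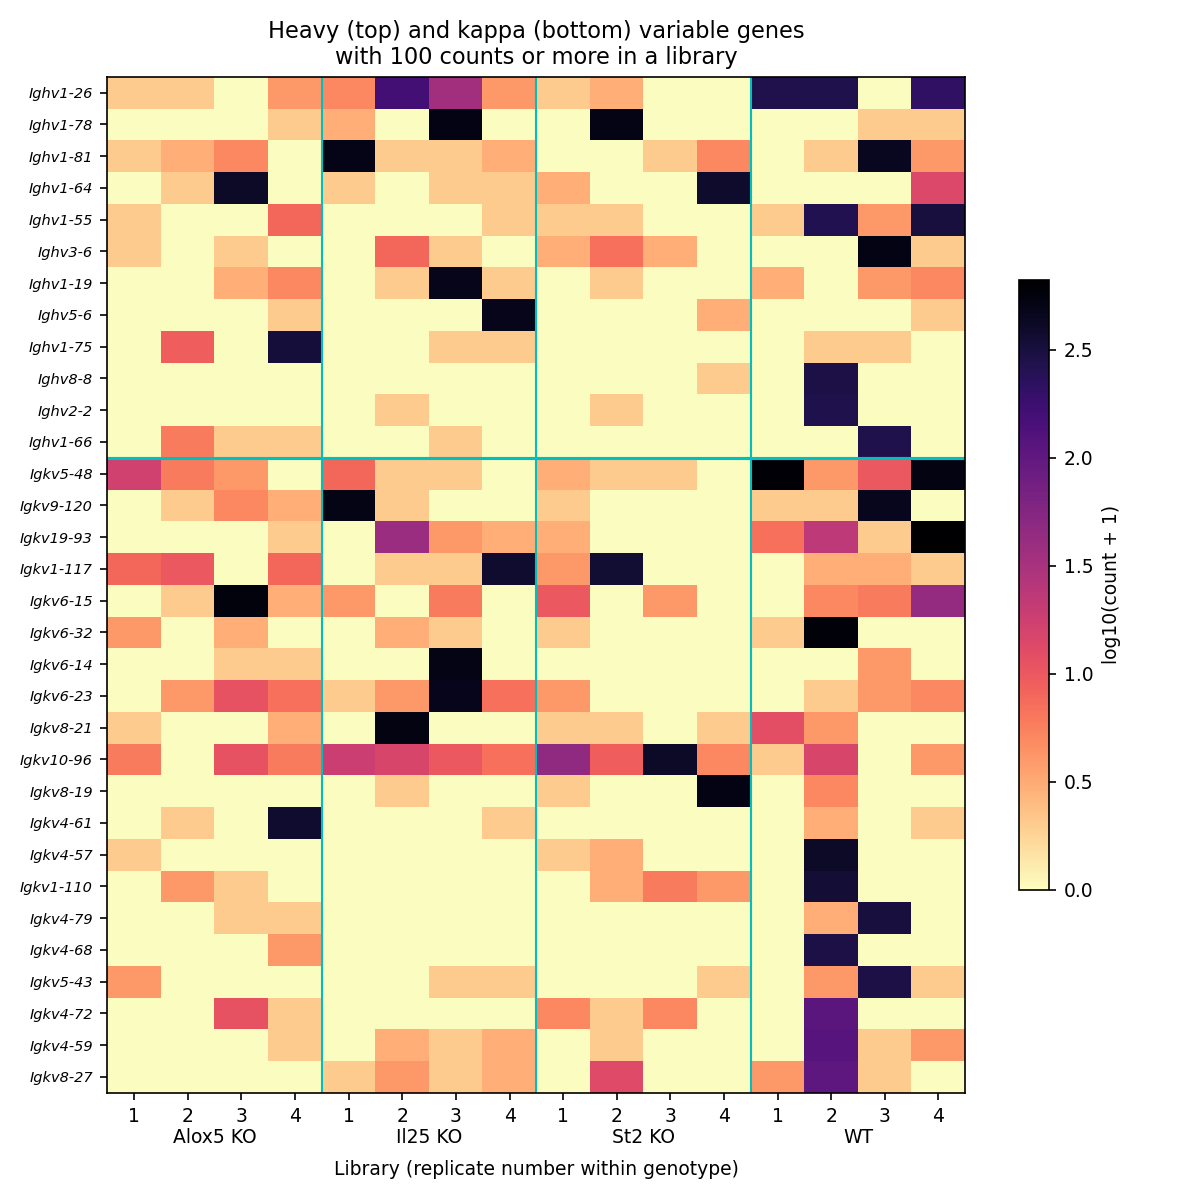
Counts of the 12 heavy and 20 kappa variable genes that reached 100 counts in a library, as log10(count + 1), with 1 column per library. Most rows have a single dark cell, and dark cells in the same row fall in libraries of different genotypes as well as the same one.

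Most pairs of libraries shared few variable genes, within a genotype and between genotypes. The overlap of a pair of libraries was taken as the sum, over genes, of the smaller of both shares. For heavy variable genes its median was 3.42% over the 24 pairs of the same genotype and 3.5% over the 96 pairs of different genotypes, and for kappa genes 2.88% and 3.17%. Pairs share libraries, so no test was made. A few pairs stood far above the median, both within a genotype and between genotypes. Within a genotype, St2 KO 1 and St2 KO 3 overlapped by 62.3% in kappa genes, where St2 KO 1 had only 76 counts. WT 2 and WT 4 overlapped by 46.0% in heavy genes, and WT 1 and WT 4 by 43.6% in kappa genes. The highest overlaps were between genotypes. Il25 KO 4 and St2 KO 2 overlapped by 91.1% in kappa genes, through Igkv1-117, with 29 and 26 counts of Igkj2 in these libraries. Alox5 KO 3 and St2 KO 4 overlapped by 89.9% in heavy genes, through Ighv1-64, but their joining segments differed, with 40 counts of Ighj2 and 7 of Ighj4 in Alox5 KO 3 and 1 of Ighj2 and 41 of Ighj4 in St2 KO 4. Il25 KO 2 and WT 1 overlapped by 82.3% through Ighv1-26, with 39 counts of Ighj4 and 1 of Ighj2 in Il25 KO 2 and 0 of Ighj4 and 33 of Ighj2 in WT 1.

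The joining segments showed the same pattern of a few segments per library. Ighj1 had 45 counts in Il25 KO 1 and 55 in WT 2 and at most 7 in the other 14 libraries. Ighj3 had 36 counts in Il25 KO 3 and 32 in St2 KO 2, which both had Ighv1-78 as their most abundant heavy variable gene, and 26, 10 and 31 counts in WT 2, WT 3 and WT 4. Il25 KO 1 and WT 3 both held Ighv1-81 and Igkv9-120 as abundant genes, but Ighj1 had 45 counts in Il25 KO 1 and 0 in WT 3. WT 4 and WT 1 both held Igkv5-48, with 24 counts of Igkj1 and 4 of Igkj4 in WT 4 and 2 of Igkj1 and 24 of Igkj4 in WT 1. Short reads do not link a variable gene to a joining segment in a count table, so these counts stand side by side only.

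Counts per base bear on how differences between abundant genes can be read. Igkc reached 1.85 counts per exonic base, the highest of the 44661 genes of at least 300 exonic bases, and no gene reached 2. The next 4 were the kappa variable genes Igkv19-93 at 1.83, Igkv5-48 at 1.67, and Igkv6-15 and Igkv6-32 at 1.61. Of the 38 genes that reached 1 count per base in a library, 18 were immunoglobulin genes. Igha reached 0.791 over all its annotated exons and 1.92 over its shortest transcript of 1100 bases. The 13 libraries with abundant Igkc lay within 858 and 984 counts while their totals differed more. Removal of duplicate reads is not stated in the labels, and its part in these values was not tested. Where duplicates are removed by position, counts of abundant short genes have a ceiling, and differences between libraries at the ceiling are understated. Iglc1 and Iglc2 reached only 0.434 and 0.291 counts per base. With such a ceiling on Igkc, the lambda share of light-chain counts would be overstated.

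**Figure D4:**
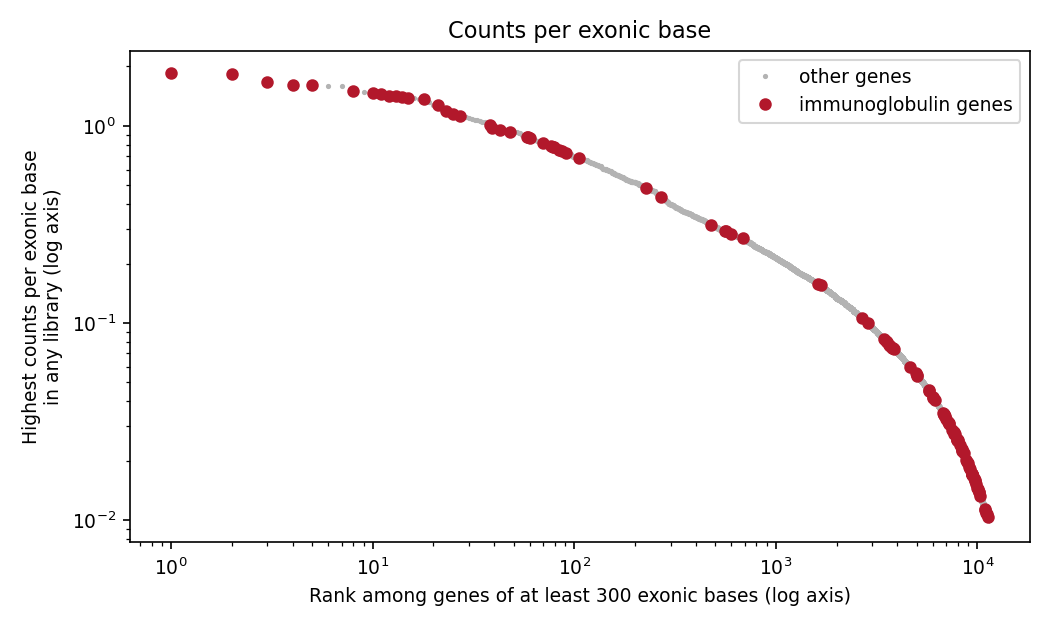
Highest count per exonic base in any library for genes of at least 300 exonic bases, ranked, on log axes, with immunoglobulin genes in red. Genes below about 0.01 counts per base are not drawn, and the 5 genes of highest rank are immunoglobulin genes, led by Igkc at 1.85.

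The comparisons of genotypes ask which transcripts differ when leukotrienes, IL-25 or the IL-33 receptor are missing. They were tested by edgeR's quasi-likelihood test over all 11742 genes that passed the filter on low counts, with set as a term and Benjamini-Hochberg adjustment. Only 18 of the 268 members passed that filter, and the 3 comparisons with WT share their WT libraries. Il25 KO and St2 KO share only set TS with WT, 2 libraries in each genotype, since TY holds no WT. The set terms are fitted over all 16 libraries. TT and TY, and the other genotypes, therefore also enter these 2 comparisons, which are not comparisons of the TS libraries alone.

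In Alox5 KO against WT, no member was called at an adjusted p under 0.05 (0 of 18, beside 0.102% of all genes tested). At an unadjusted p under 0.05 there were 4 members, all lower, beside 7.17% of all genes, and DESeq2 called 2, Ighv1-26 and Iglv3, beside 0.46% of its genes. The median log2 fold change was -1.13 over the 18 members and 0.0129 over all genes tested, with a median SE of 0.921 and 0.224. Igha had a log2 fold change of -1.62 ± 0.92 (SE; edgeR adjusted p = 0.744), Igkc of -1.05 ± 0.63 (0.761) and Iglv3 of -4.34 ± 1.14 (0.211). Iglv3 had 3 counts over the 4 Alox5 KO libraries and 75 over the 4 WT libraries, a ratio of 0.0424 with an exact counting interval of 0.00855 to 0.129. The interval pools the counts of a genotype and leaves out the spread between libraries. Ighm had a log2 fold change of 0.07 ± 0.07 (edgeR adjusted p = 0.86). Without Alox5 KO 1, Alox5 KO 2 and St2 KO 1 the log2 fold change was 0.09 for Igha, 0.17 for Igkc and 0.31 for Iglv1, against -1.25 for Iglv1 with them, so these 3 values turned in direction. The libraries left out were picked for their low Igha, Igkc and Jchain. For Igha and Igkc the turn therefore follows from that choice and is no separate result.

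The summed level was also compared within the sets that hold both genotypes. The difference in the mean log2 of the summed CPM was -1.08 with all libraries, -1.97 in TS and -0.19 in TT, and without Ighm it was -2.33, -4.41 and -0.258. The SD of the log2 sum was 1.07 in Alox5 KO and 0.284 in WT (n = 4 each). The difference between the sets, TS minus TT, was -6.05 on the log2 scale for Iglv1 (edgeR adjusted p = 0.43), -5.86 for Igha (0.986), -3.32 for Igkc (1) and 0.00 for Ighm (1). In TS alone, where 2 libraries stood against 2, Iglv1 was called with a log2 fold change of -5.75 (edgeR adjusted p = 0.0013). Both Alox5 KO libraries of TS are those already picked as low in Igha, Igkc and Jchain. The share of all genes called in that fit is not given here, so the call is not shown to be particular to the members.

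Ighv1-26 (chr12:114788372-114788805) gave the smallest adjusted p among the members in this comparison and in St2 KO against WT. It had 1, 1, 0 and 3 counts in Alox5 KO, 4, 159, 34 and 3 counts in Il25 KO, 1, 2, 0 and 0 counts in St2 KO, and 269, 274, 0 and 214 counts in WT. The ranges overlapped, because WT 3 had none. In Alox5 KO against WT its log2 fold change was -7.05 ± 1.40 (edgeR adjusted p = 0.0758), and in St2 KO against WT -7.80 ± 1.62 (0.0648). With 3 counts over the 4 St2 KO libraries and 757 over the 4 WT libraries, the ratio was 0.00345, with an exact counting interval of 0.000709 to 0.0101. The interval pools the counts of a genotype and leaves out the spread between libraries, which was large in WT. In Il25 KO against WT its log2 fold change was -1.77 ± 0.79 (edgeR adjusted p = 0.502), and the one of Il25 KO against St2 KO was 6.03 ± 2.09 (0.24). Without WT 3, edgeR called it in Alox5 KO against WT (edgeR adjusted p = 0.000257), St2 KO against WT (0.000326) and Il25 KO against St2 KO (0.0267). WT 3 was the only WT library without counts of this gene. Its removal takes out the WT value that lay with the knockouts, so the calls against WT are no separate support. The share of all genes called in that fit is not given here.

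In Il25 KO against WT, no member was called (0 of 18, beside 0.417% of all genes tested). There were 4 members at an unadjusted edgeR p under 0.05, all lower, beside 9.3% of all genes, and DESeq2 called 0, beside 0.698%. The median log2 fold change was 0.103 over the members and 0.00277 over all genes. Ighm had a log2 fold change of -0.06 ± 0.09 (edgeR adjusted p = 0.906), which turned to 0.02 without Il25 KO 2. The log2 sum differed by -0.245, with an SD of 0.266 in Il25 KO and 0.284 in WT. Of the 4 genotypes, Il25 KO and WT had no library low in Igha.

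In St2 KO against WT, no member was called (0 of 18, beside 0.298% of all genes tested). There were 4 members at an unadjusted edgeR p under 0.05, all lower, beside 7.49% of all genes, and DESeq2 called 1, Ighv1-26, beside 0.571%. The median log2 fold change was -0.907 over the members and 0.0126 over all genes. Igha had a log2 fold change of -0.35 ± 0.95 (edgeR adjusted p = 0.961), which was 0.23 without St2 KO 1, 0.02 without WT 1 and 0.18 without WT 2. Iglv1 had one of -2.07 ± 0.89 (0.631) and was called in TS alone at -3.19 (0.000958). TS holds St2 KO 1, already picked as low, and the share of all genes called in that fit is not given here. Ighm had a log2 fold change of -0.11 ± 0.09 (edgeR adjusted p = 0.831). The log2 sum differed by -0.942, and by -0.58 without St2 KO 1.

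In Il25 KO against St2 KO, which share sets TS and TY, no member was called (0 of 18, beside 1.24% of all genes tested). There were 7 members at an unadjusted edgeR p under 0.05, 5 higher and 2 lower, beside 11.3% of all genes, and DESeq2 called 1, Ighv1-26, beside 2.1%. The median log2 fold change was 1.06 over the members and -0.0111 over all genes. Iglv1 had a log2 fold change of 2.22 ± 0.69 (edgeR adjusted p = 0.187), and was called in TS alone at 2.96 (0.00192) and in a fit of these genotypes alone at 2.22 (0.0455). Both fits hold St2 KO 1, already picked as low, and their shares of all genes called are not given here. Ighm had a log2 fold change of 0.04 ± 0.07 (edgeR adjusted p = 0.884), which was 0.00 without Il25 KO 3 and -0.06 in TS alone. The log2 sum differed by 0.696, by 0.924 in TS and by 0.468 in TY.

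**Figure D5:**
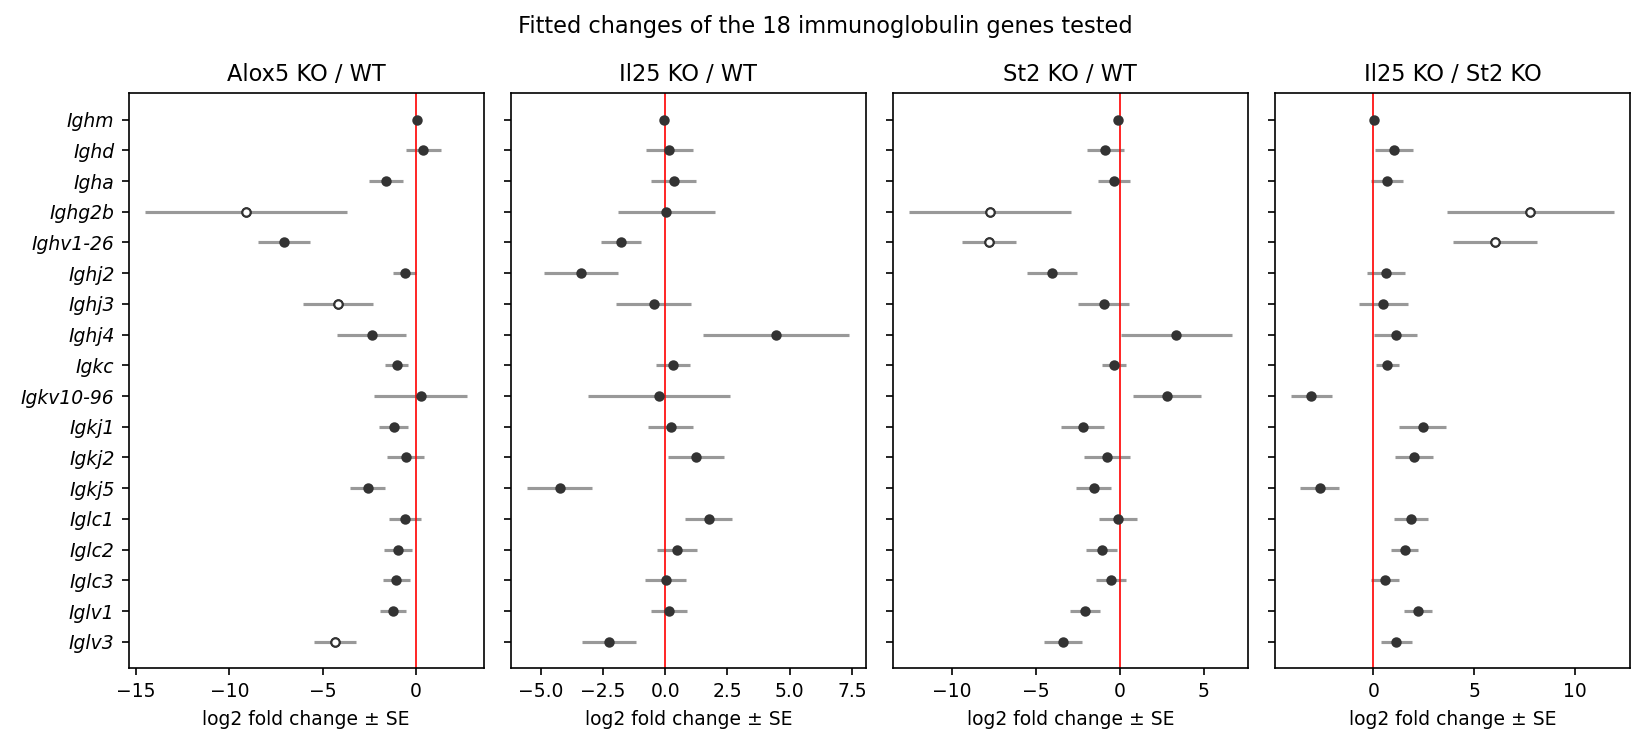
Log2 fold changes of the 18 immunoglobulin genes that were tested, with their SE as bars, in the 4 comparisons. Open symbols have at most 3 counts in 1 of the genotypes, where the fitted value depends on the prior count. Ighm lies at 0 with a short bar in every panel, between -0.11 and 0.07, and the x axes differ between panels.

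Fitted values of genes with few counts in a genotype have large errors and depend on the prior count. Ighg2b had 0 counts in all 4 Alox5 KO libraries and 263 over the WT libraries, at least 82.7-fold lower in Alox5 KO with 3 counts over the group as the floor, yet the WT counts came from WT 2 and WT 4 alone and its log2 fold change of -9.09 had an SE of 5.41 (edgeR adjusted p = 0.77).

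Genes that B cells and plasma cells use to make and secrete antibody were set beside the members. Of 18 plasma cell secretory genes, all were tested, and in Alox5 KO against WT 1 was called lower and none higher, beside 0.0681% of all genes called lower. It was Derl3, which takes part in the removal of misfolded proteins from the endoplasmic reticulum. It had 0, 10, 5 and 6 counts in Alox5 KO and 40, 96, 158 and 97 counts in WT, and its log2 fold change was -4.07 ± 0.62 (edgeR adjusted p = 0.00369). The groups did not overlap, and Derl3 was low also in Alox5 KO 3 and 4, where Igha was abundant. EdgeR did not call it without Alox5 KO 3 (edgeR adjusted p = 0.079) or without Alox5 KO 4 (0.0506). Jchain had a log2 fold change of -1.54 ± 0.87 (edgeR adjusted p = 0.743), and 0.06 without the 3 low libraries, which were picked in part by Jchain itself. At an unadjusted edgeR p under 0.05 there were 7 of the 18, all lower, beside 7.17% of all genes. DESeq2 called 3, Derl3, Mzb1 and Txndc5, beside 0.46% of its genes. The median log2 fold change of the 18 secretory genes was -0.61 in this comparison. In the other 3 comparisons edgeR called none of them. At an unadjusted p under 0.05 there were 2 in Il25 KO against WT (beside 9.3% of all genes) and 4 in St2 KO against WT (beside 7.49%). For Il25 KO against St2 KO there were 8 (beside 11.3%). DESeq2 called 0, 1 and 1 in the same order, beside 0.698%, 0.571% and 2.1% of its genes.

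Of 19 B cell receptor and B cell genes, 11 were tested. In Il25 KO against WT 2 were called lower, beside 0.281% of all genes. Cd79b, a signalling subunit of the B cell receptor, averaged 93.5 ± 20.6 CPM in Il25 KO and 174.9 ± 23.4 CPM in WT (SD, n = 4 each). In set TS, the only set that holds both genotypes, it had 67.0 and 89.5 CPM in Il25 KO and 143.3 and 174.7 CPM in WT. The log2 fold change fitted over all 16 libraries was -1.07 ± 0.16 (edgeR adjusted p = 0.0019). In TS alone edgeR did not call Cd79b. Cd72, an inhibitory co-receptor, averaged 110.2 ± 3.85 CPM in Il25 KO and 175.8 ± 23.8 CPM in WT (SD, n = 4 each), and its adjusted p of 0.0444 went above 0.05 when 1 library was left out in 14 of 16 cases. In Il25 KO against St2 KO, 1 was called lower, Cd79b (-0.61 ± 0.13, edgeR adjusted p = 0.0229), and 1 higher, Vpreb3, a chaperone of B cell receptor assembly (2.78 ± 0.67, 0.0368), beside 0.392% and 0.852% of all genes. Cd79b had 333 to 400 counts in Alox5 KO 1, Alox5 KO 2 and St2 KO 1, while Cd79a, its partner in the receptor, had 0, 43 and 0, so Cd79b counts did not go with Igha. In Alox5 KO and St2 KO against WT edgeR called none of the 11, with 2 and 4 at an unadjusted p under 0.05, beside 7.17% and 7.49% of all genes. DESeq2 called 0 in both, beside 0.46% and 0.571% of its genes. The unadjusted count was 5 of 11 in Il25 KO against WT, beside 9.3%, and 6 of 11 for Il25 KO against St2 KO, beside 11.3%. DESeq2 called 2 in each of these. They were Cd72 and Cd79b in Il25 KO against WT, beside 0.698% of its genes, and Cd79b and Lyn for Il25 KO against St2 KO, beside 2.1%. Of 7 recombination and switching genes only Ung and Rag2 were tested, and edgeR and DESeq2 called neither in any comparison. At an unadjusted p under 0.05 there was 1 of them in St2 KO against WT, beside 7.49% of all genes, and 1 for Il25 KO against St2 KO, beside 11.3%.

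Markers of other cells in the 3 libraries low in Igha, Igkc and Jchain were as follows. The 8 plasma cell markers summed to 284 to 394 CPM in the 3, with Mzb1 and Tnfrsf17 at 0, and to 799 to 1270 CPM in the other 13, where each of the 8 had counts in at least 1 library. This sum holds Jchain, one of the genes by which the 3 libraries were told apart. The 7 markers without Jchain summed to 282 to 361 CPM in the 3 and to 338 to 682 CPM in the other 13, so these ranges overlapped. Xbp1 alone held 203, 218 and 290 CPM in Alox5 KO 1, Alox5 KO 2 and St2 KO 1. The single markers differed in this. Mzb1 had 0 counts in the 3 and 27 to 281 in the other 13, and Sdc1 had 0, 1 and 0 against 4 to 85. The ranges of Xbp1, Derl3, Prdm1, Irf4 and Tnfrsf17 overlapped. The ILC2 markers summed to 5670 to 6473 CPM in the 3 and to 5104 to 6830 CPM in the other 13. The 7 B cell markers summed to 112 to 187 CPM in the 3 and 81.8 to 229 CPM in the other 13, with Pax5 at 0 throughout. Cd79b held most of this sum, with 159, 149 and 112 CPM in Alox5 KO 1, Alox5 KO 2 and St2 KO 1. Cd79a had 0, 43 and 0 counts there and 22 to 102 in the other 13. The 7 T cell markers summed to 96.8 to 157 CPM and 96.2 to 202 CPM. Cd3g held 54.9, 98.2 and 99.5 CPM of it in the 3. Cd3e had 3, 8 and 61 counts in the 3 and 24 to 94 in the other 13. The 6 epithelial markers summed to 11.6 to 13.2 CPM in the 3 and to 13.5 to 210 CPM in the other 13, and the macrophage and granulocyte markers did not exceed 34.6 CPM in any library. The part of plasma cells or of free RNA in the immunoglobulin counts was not tested.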

How the data were processed

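The authors deposited 1 table of raw counts per gene for the 16 libraries, not scaled for depth or length. The tools named in the submitters' processing notes were FastQC 0.11.3, Picard 1.134, HTSeq 0.4.1 and STAR 2.4.2a, with the build GRCm38. Settings and removal of duplicates are not given in the sources used here. Per the labels' protocols, libraries were made with Nextera XT, which does not mark strand, so overlapping genes can share reads. After 6 rows with a repeated identifier were dropped, 53465 of 53471 rows were kept. CPM were counts over the column total of these rows. The 161 immunoglobulin pseudogenes were left out. No column lay outside the 16 libraries. Positions, exon lengths and sequences came from GENCODE M21 on GRCm38, which held all 268 members.

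Groups came from the titles and sets from the sample codes. Counts were tested with edgeR 4.0.16 in R 4.3.3 (glmQLFit with robust estimates, glmQLFTest, TMM scaling, filterByExpr by genotype), with genotype and set as terms over all 16 libraries and 10 residual degrees of freedom, adjusted by Benjamini-Hochberg at 0.05. The SE is the size of the log2 fold change over the square root of F. Summed CPM were compared as differences of mean log2 values with no test, since members were taken as a group. SDs between libraries used log2 CPM with a prior count of 2. DESeq2 1.42.0, other scalings, filters and terms, and leaving out libraries were alternatives. Leaving out Alox5 KO 1, Alox5 KO 2 and St2 KO 1, leaving out Ighm from the sum, and leaving out Jchain from the plasma cell markers, were added after the data were seen. The fit was tested on simulated counts, where the false share among calls was above the threshold in every comparison except Alox5 KO against WT, so single calls in the others are less firm than their adjusted p. Named genes were every constant gene, the most abundant variable genes by locus and library, any member called, joining or diversity segments of at least 10 CPM on average, and B-lineage genes called or on a short list (Jchain, Mzb1, Xbp1, Derl3, Cd79a, Cd79b, Ms4a1 and 1 gene not reported here). Joining segments, and the variable genes grouped by 100 counts, were described after their values were seen. The members and lists were chosen with earlier results of these data known.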

Additional observations from a re-analysis of the deposited data

Results flagged for a closer look

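In each genotype of 4 libraries, the gap between an extreme library and its nearest neighbour was divided by the range of the group, and in 13 of 66 groups it exceeded Dixon's critical value for 4 samples. For normally distributed values chance gives about 1 such group in 20, and the classes share genes. A group with counts in 1 library alone always gives 1.0, so that rate does not hold for rare genes. St2 KO 1 was far below the other St2 KO libraries in Igha (0.921), Igkc (0.888), the sum of constant segments (0.947) and the sum of all members without Ighm (0.831). In Alox5 KO, replicates 1 and 2 were low together, which this measure does not single out.

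Il25 KO 3 was the highest Il25 KO library in the sum of variable segments (0.87), at 988.9 CPM. The others were rare isotypes or lambda genes in 1 library of a genotype. Ighd was highest in Il25 KO 2 (0.877) and in WT 2 (0.848), with 64 and 45 counts. Iglc1 was highest in Alox5 KO 4 (0.878) and in St2 KO 2 (0.85), with 197 and 95 counts. The value was 1.0 where the 3 other libraries had no count, for Ighg1 in St2 KO 4 with 91 counts, Ighg1 in WT 2 with 1 count, Ighg2b in St2 KO 1 with 1 count and Ighg2c in Il25 KO 3 with 6 counts.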

How the results depend on the processing

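The count of 0 called members held with DESeq2 size factors, without the filter on low counts, with scaling from other genes and in edgeR's legacy mode in all 4 comparisons. In Alox5 KO against WT it was 2 with DESeq2, 1 in TS alone and 2 with the replicate block. In St2 KO against WT it was 1 with DESeq2, 1 without the set term, 2 in TS alone and 2 with the replicate block. In Il25 KO against St2 KO it was 1 with DESeq2, 1 in TS alone, 1 with the replicate block and 2 in a fit of these genotypes alone. Leaving out 1 library gave 0 to 3 in Alox5 KO against WT (1 without WT 2, Il25 KO 1, Il25 KO 2 or WT 4, and 3 without WT 3), 0 to 2 in Il25 KO against WT (2 without WT 2) and 0 to 1 in St2 KO against WT (1 without WT 2, WT 3, WT 4, Il25 KO 1, Il25 KO 2 or Il25 KO 4). For Il25 KO against St2 KO it gave 0 to 1 (1 without Il25 KO 1, WT 3 or St2 KO 4). The share of all genes called under each setting is not set beside these counts or those of the lists below. A change in a count is therefore not shown to be particular to the members. Replicate numbers did not pair the samples: the deviations of same-numbered libraries correlated at -0.0414 to 0.197.

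Of the secretory genes, the 1 called in Alox5 KO against WT was 3 with DESeq2, 0 in legacy mode, 0 in TS alone, 2 with the replicate block and 3 in a fit of these genotypes alone, and 0 to 2 with 1 library left out (0 without Alox5 KO 3 or 4, 2 without Il25 KO 3 or 4). The 0 called became 1 without the set term in Il25 KO against WT. In St2 KO against WT it became 1 with DESeq2 and 1 without the set term, and in Il25 KO against St2 KO 1 with DESeq2. Of the B cell genes, the 2 called in Il25 KO against WT were 1 without the filter, in legacy mode, with the replicate block and without the 3 low libraries, 0 in TS alone and in a fit of these genotypes alone, and 1 to 2 with 1 library left out. The 2 called in Il25 KO against St2 KO were 1 without the filter, in legacy mode and with the replicate block, 0 without the set term, in TS alone, without the 3 low libraries and in a fit of these genotypes alone, and 0 to 2 with 1 library left out (0 without Il25 KO 1, 3 or 4 or St2 KO 4).

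The difference in the log2 sum in Alox5 KO against WT was -2.66 for variable genes alone, -2.33 without Ighm, -1.97 in TS alone and -0.163 without the 3 low libraries. For variable genes alone it was -0.708 in Il25 KO against WT, -2.17 in St2 KO against WT and 1.47 for Il25 KO against St2 KO. With 1 library left out it was -1.42 to -0.762, -0.373 to -0.139, -1.09 to -0.58 and 0.335 to 0.848 in the 4 comparisons. Without the 3 low libraries the log2 fold changes in Alox5 KO against WT turned to 0.088 for Igha, 0.17 for Igkc, 0.31 for Iglv1 and 0.060 for Jchain. Low Igha, Igkc and Jchain were the grounds for picking these libraries. The turn of these genes, and much of the shift of the sum to -0.163, thus follow from the choice. Igha in St2 KO against WT ranged from -1.07 to 0.23 with 1 library left out, and was above 0 without WT 1, WT 2 or St2 KO 1. Ighm ranged from -0.089 to 0.020 in Il25 KO against WT (0.020 without Il25 KO 2). Between Il25 KO and St2 KO it ranged from -0.0049 (without Il25 KO 3) to 0.10 and was -0.065 in TS alone. The cause of these changes was not tested.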
